A study of Homo sapiens with 6 samples.

Results

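The 10 genes described here are core members of the retinoblastoma (RB) pathway, namely RB1, RBL1, RBL2, CDKN2A, CCND1, CDK4, CDK6, CCNE1, E2F1 and E2F3. They were chosen by name, because the cell line studied is known to carry an RB1 mutation, and the rule uses no measured value, although earlier results of these data were known when the genes were listed. All 10 were found by symbol among the 25528 gene symbols of the expression table, and all 10 were among the 11672 genes that passed a mean of at least 1 TPM (transcripts per 1000000 transcripts) over the 6 samples. DU-145 is an established human prostate cancer line. The study expressed a doxycycline-inducible (tet) short hairpin RNA (shRNA) against the long noncoding RNA XIST in these cells and compared 3 vehicle samples with 3 DOX samples by RNA-seq. Vehicle samples received 0.1% DMSO, and DOX samples received 500 ng/ml doxycycline, with 7 days of treatment given in the study's legends of its RNA-seq figures. Both groups were DU-145/tet-XISTshRNA cells in RPMI1640 medium with serum, and both carried the hairpin construct after drug selection. DOX-treated cells with a control hairpin are not analysed here, so an effect of doxycycline itself and one of XIST silencing cannot be told apart. The RB1 mutation is background knowledge about the line, and a gene-level expression value does not show it.

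RB1, RBL1 and RBL2 encode the pocket proteins pRB, p107 and p130, which bind E2F transcription factors and hold E2F target genes down before a cell commits to DNA replication. Cyclin D with CDK4 or CDK6, and then cyclin E with CDK2, phosphorylate the pocket proteins and release the E2Fs, while the CDKN2A product p16 inhibits CDK4 and CDK6. Cells that have lost pRB commonly carry much p16, and their proliferation no longer requires CDK4 or CDK6 activity.

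Several pathway genes are themselves E2F targets, so the promoters of the 10 genes were searched for the E2F core motif TTTNGCG on both strands in the 250 bases before each start site listed by RefSeq (GRCh38.p14). The tables used here matched 9 of the 10 genes, with 13 windows. Of these, 3 windows held the motif, and they are printed because they belong to 2 E2F genes and to the pocket protein gene RBL1. The capitals mark the motif, and each sequence reads 5′ to 3′ on the strand of its gene. The E2F1 window lies at chr20:33686386-33686635 on the minus strand, the RBL1 window at chr20:37095998-37096247 on the minus strand, and the E2F3 window at chr6:20401629-20401878 on the plus strand.
E2F1: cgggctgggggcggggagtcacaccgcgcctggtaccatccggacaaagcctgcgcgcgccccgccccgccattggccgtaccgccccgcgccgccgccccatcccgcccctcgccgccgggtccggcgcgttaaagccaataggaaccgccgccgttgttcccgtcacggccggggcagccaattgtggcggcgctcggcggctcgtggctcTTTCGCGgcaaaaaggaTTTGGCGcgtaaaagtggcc
RBL1: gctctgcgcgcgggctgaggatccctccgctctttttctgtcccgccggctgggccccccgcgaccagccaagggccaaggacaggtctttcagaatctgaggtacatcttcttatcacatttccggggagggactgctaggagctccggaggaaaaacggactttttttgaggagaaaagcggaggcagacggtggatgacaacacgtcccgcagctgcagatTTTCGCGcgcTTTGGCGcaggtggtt
E2F3: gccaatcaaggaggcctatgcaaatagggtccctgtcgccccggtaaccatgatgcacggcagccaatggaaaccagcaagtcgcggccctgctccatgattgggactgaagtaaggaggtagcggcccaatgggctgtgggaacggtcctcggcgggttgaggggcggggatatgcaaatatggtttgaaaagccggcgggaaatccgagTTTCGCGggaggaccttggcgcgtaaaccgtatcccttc
The motifs began 37 and 20 bases before the start of E2F1, 26 and 16 bases before that of RBL1, and 39 bases before that of E2F3. Of all 35116 RefSeq windows of this length, 4.32% held the motif at least once and 0.231% held it at least 2 times. The single RB1 window listed there starts inside the gene and not at its 5′ end, so it says nothing about the main RB1 promoter. A match is a match of letters, and no binding was measured in these samples.

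TPM sets the total of each sample to 1000000, so a gene's TPM also depends on the other RNAs of its sample. A few small noncoding RNAs (RN7SL1, RN7SL2, RN7SL3, RN7SK and RPPH1) held between 67.5% and 76.0% of the TPM in vehicle samples and between 76.0% and 82.6% in DOX samples. Over all genes tested, the log2 fold change, DOX against vehicle on the log2(TPM + 1) scale, had a median of -0.35, and it was 0.02 after the samples were rescaled by the median of their ratios to a common reference (median-of-ratios scaling). Both scales are therefore given below. Between 5453982 and 64572651 reads were counted on genes per sample, as recovered from the deposited values, with the smallest number in vehicle replicate 3 and the largest in DOX replicate 1. The epithelial markers EPCAM, KRT8, KRT18, KRT19 and CDH1 were detected in all 6 samples at 5.11 to 146.5 TPM, while KLK3, a marker of luminal prostate cells, was listed at 0 and markers of fibroblasts, immune cells and endothelium reached at most 0.616 TPM. XIST was listed at 0 in all 6 samples, and so was the translation factor gene EIF4A1, so the silencing of XIST could not be checked from these values.

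The pocket protein genes had the most negative differences of the 10 genes. RB1, on chromosome 13 at 48303744 to 48599436 (GRCh38, GENCODE release 44), was at 22.8, 29.8 and 39.2 TPM in vehicle replicates 1, 2 and 3 and at 10.1, 26.3 and 18.8 TPM in DOX replicates 1, 2 and 3. The groups overlapped, since DOX replicate 2 lay above vehicle replicate 1. Its vehicle mean was 30.6 ± 8.24 TPM and its DOX mean 18.4 ± 8.11 TPM (SD, n = 3 each), and the log2 fold change was -0.77 (standard error 0.29, limma adjusted p = 0.0928), which did not pass the threshold of an adjusted p under 0.05 and a fold change over 1.5. RB1 mRNA was thus readily detected in this RB1-mutant line, by at least 1012 reads in every sample. On the rescaled values it was -0.34 (95% interval -0.78 to 0.09, limma adjusted p = 0.387).

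RBL1, which encodes p107, was at 9.35, 11.8 and 13.4 TPM in the vehicle samples and at 4.05, 10.4 and 6.08 TPM in the DOX samples. As for RB1, DOX replicate 2 lay within the vehicle range and the other two DOX samples lay below it. Its vehicle mean was 11.5 ± 2.05 TPM and its DOX mean 6.86 ± 3.27 TPM (SD, n = 3 each), with a log2 fold change of -0.74 (standard error 0.27, limma adjusted p = 0.0795), and of -0.35 after median-of-ratios scaling (limma adjusted p = 0.366). RBL2, which encodes p130, the pocket protein most abundant in resting cells, was at 19.9, 24.5 and 30.4 TPM in the vehicle samples and at 10.5, 15.1 and 17.0 TPM in the DOX samples. It was the 1 member whose DOX samples all lay below its vehicle samples, a pattern that 30.7% of all genes tested showed on the TPM scale and 0.223% showed in the opposite direction. Its vehicle mean was 24.9 ± 5.28 TPM and its DOX mean 14.2 ± 3.31 TPM (SD, n = 3 each), with a log2 fold change of -0.77 (standard error 0.27, limma adjusted p = 0.0727). The groups remained apart after median-of-ratios scaling, where 9.22% of all genes had DOX entirely lower, with a log2 fold change of -0.35 (95% interval -0.64 to -0.06, limma adjusted p = 0.282). Exons of RBL2 overlap those of AKTIP on the opposite strand, which was at 3.31 to 7.20 TPM, and the strand setting of the counting is not given in the sources used here.

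The mean shares of the 3 pocket protein genes in their sum were close in both groups. RB1 made up 45.4 ± 1.71% of their summed TPM with vehicle and 45.5 ± 4.95% with DOX (SD, n = 3 each), RBL2 37.3 ± 0.814% and 37.5 ± 7.30%, and RBL1 17.3 ± 1.01% and 17.0 ± 2.86%. The spread was wider among the DOX samples, in which the RBL2 share ran from 29.1% in replicate 2 to 42.7% in replicate 1. A share within 1 sample does not depend on how that sample is scaled.

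CDKN2A, which encodes the CDK4 and CDK6 inhibitor p16 and, from another reading frame, p14ARF, had the highest TPM of the 10 genes. It was at 93.8, 76.5 and 127.6 TPM in the vehicle samples and at 65.2, 97.5 and 98.9 TPM in the DOX samples. The groups overlapped widely, with means of 99.3 ± 26.0 and 87.2 ± 19.1 TPM (SD, n = 3 each). The log2 fold change was -0.18 on the TPM scale (95% interval -0.75 to 0.39, limma adjusted p = 0.646) and 0.26 after median-of-ratios scaling (95% interval -0.05 to 0.57, adjusted p = 0.360), so its direction depended on the scaling. On the latter scale the DOX samples, at 93.9 to 106 scaled TPM, all lay above the vehicle samples, at 69.0 to 90.4, a pattern that 10.8% of all genes showed. The 2 CDKN2A products are not separated in a gene-level value, and CDKN2A exons overlap those of CDKN2B-AS1 on the opposite strand, which was at 0.627 to 1.99 TPM.

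**Figure D1:**
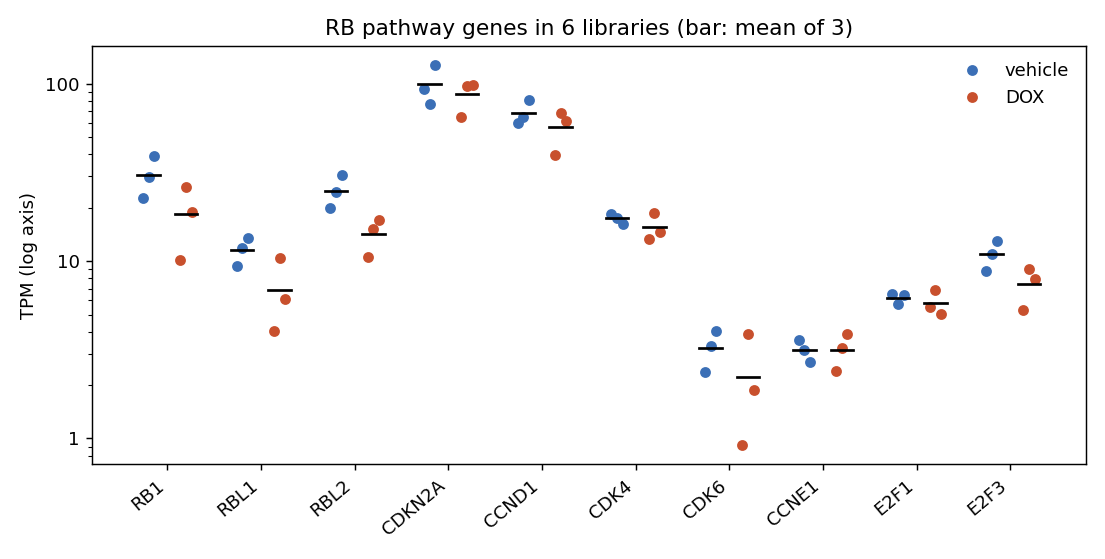
TPM of the 10 genes in each sample (points, log axis), with the mean of each group (bars), for 3 vehicle and 3 DOX samples. RBL2 is the gene whose groups do not overlap, and for RB1 the highest DOX sample, at 26.3 TPM, lies above the lowest vehicle sample, at 22.8 TPM.

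CCND1, which encodes cyclin D1, was the next most abundant gene, at 60.1, 64.8 and 81.2 TPM in the vehicle samples and 39.4, 68.6 and 62.0 TPM in the DOX samples. Its log2 fold change was -0.30 (95% interval -0.87 to 0.27, limma adjusted p = 0.440), turning to 0.14 after median-of-ratios scaling (adjusted p = 0.548). CDK4, a catalytic partner of cyclin D1, was at 18.4, 17.5 and 16.2 TPM in the vehicle samples and at 13.4, 18.6 and 14.6 TPM in the DOX samples. Its means of 17.4 ± 1.09 and 15.5 ± 2.73 TPM (SD, n = 3 each) gave a log2 fold change of -0.17 (95% interval -0.69 to 0.35, limma adjusted p = 0.637), which was 0.25 after median-of-ratios scaling (adjusted p = 0.436). The other catalytic partner, CDK6, was far less abundant, at 2.36, 3.31 and 4.02 TPM in the vehicle samples and 0.917, 3.87 and 1.87 TPM in the DOX samples. The CDK6 values spread more widely in the DOX than in the vehicle samples, from the lowest value of all 6 samples in replicate 1 to the second highest in replicate 2. The log2 fold change of CDK6 was -0.48 (95% interval -0.97 to 0.01, limma adjusted p = 0.174) and -0.18 after median-of-ratios scaling.

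CCNE1, which encodes cyclin E1, the partner of CDK2, was at 3.59, 3.13 and 2.71 TPM in the vehicle samples and at 2.40, 3.23 and 3.86 TPM in the DOX samples. The means were 3.15 ± 0.442 and 3.16 ± 0.736 TPM (SD, n = 3 each), with a log2 fold change of -0.00 (95% interval -0.44 to 0.43, limma adjusted p = 0.989), which was 0.32 after median-of-ratios scaling (95% interval -0.06 to 0.70, adjusted p = 0.358). The groups overlapped, and the CCNE1 value of vehicle replicate 3 rests on 26 reads.

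E2F1, an activator E2F, was at 6.51, 5.71 and 6.42 TPM in the vehicle samples and at 5.54, 6.87 and 5.05 TPM in the DOX samples. The groups overlapped and the means were 6.21 ± 0.435 and 5.82 ± 0.943 TPM (SD, n = 3 each). The log2 fold change was -0.09 (95% interval -0.55 to 0.38, limma adjusted p = 0.788) and turned to 0.29 after median-of-ratios scaling (95% interval -0.06 to 0.65, adjusted p = 0.370). E2F3, the other activator E2F of the set, is transcribed from several start sites into E2F3a and E2F3b, which a gene-level value adds together. It was at 8.74, 11.0 and 13.0 TPM in the vehicle samples and at 5.30, 9.02 and 7.96 TPM in the DOX samples, so that DOX replicate 2 lay above vehicle replicate 1 only. The means were 10.9 ± 2.16 and 7.43 ± 1.92 TPM (SD, n = 3 each), with a log2 fold change of -0.51 (standard error 0.25, limma adjusted p = 0.168) and of -0.11 after median-of-ratios scaling. The 3 genes with the E2F motif in the printed windows, E2F1, RBL1 and E2F3, thus had log2 fold changes of -0.09, -0.74 and -0.51 on the TPM scale. After median-of-ratios scaling these were 0.29, -0.35 and -0.11.

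Ordered by mean TPM, which is corrected for gene length, the vehicle samples ran from CDKN2A over CCND1, RB1, RBL2, CDK4, RBL1, E2F3, E2F1 and CDK6 down to CCNE1. The neighbours CDKN2A and CCND1, RB1 and RBL2, RBL1 and E2F3, and CDK6 and CCNE1 overlapped in their ranges over the vehicle samples. CDKN2A was above CCND1, and CCND1 above RB1, in 6 of 6 samples. With DOX the order of the first 3 genes was the same, CDK4 stood above RBL2, E2F3 above RBL1 and CCNE1 above CDK6, and each of these pairs overlapped.

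Ratios between members within a sample remove the scaling of that sample, and 9 ratios were compared by exact two-sided permutation, which with 3 samples a group cannot give a p under 0.1. The groups overlapped for all 9 ratios. The ratio of CDKN2A to RB1 was 4.11, 2.57 and 3.25 in the vehicle samples and 6.45, 3.71 and 5.26 in the DOX samples. The mean log2 ratio differed by 0.62 (exact permutation p = 0.2, 0.9 after Benjamini-Hochberg adjustment over the 9 ratios). The ratio of E2F3 to E2F1 was 1.77 ± 0.370 with vehicle and 1.28 ± 0.311 with DOX (SD, n = 3 each, exact permutation p = 0.2), and that of CDK6 to CDK4 was 0.188 and 0.135 (exact permutation p = 0.5). The ratio of RBL1 to RB1 was 0.382 and 0.374 (exact permutation p = 0.7), and that of RBL2 to RB1 was 0.822 and 0.841 (exact permutation p = 1). No ratio passed, and this permutation could not have reached 0.05. Within replicate numbers 1, 2 and 3, the log2 ratio of CDKN2A to RB1 was higher with DOX by 0.65, 0.53 and 0.69, so that all 3 differences were positive with an SD of 0.0849. The log2 ratio of E2F3 to E2F1 differed by -0.49, -0.55 and -0.37 within these numbers, and that of CCND1 to CDK4 by -0.15, -0.0029 and -0.23. Exact two-sided sign flips of the 3 differences gave p = 0.25 for each of these 3 ratios, which is the smallest such flips allow (0.75 after adjustment over the 9 ratios). Such ratios do not remove differences that follow GC content. It was 58.3% for CDKN2A, 37.1% for RB1, 46.3% for E2F3 and 61.6% for E2F1. After a spline on GC content and length was removed in each sample, their log2 fold changes were -0.08, -0.16, -0.12 and 0.01. The ratios themselves were not tested after that correction.

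**Figure D2:**
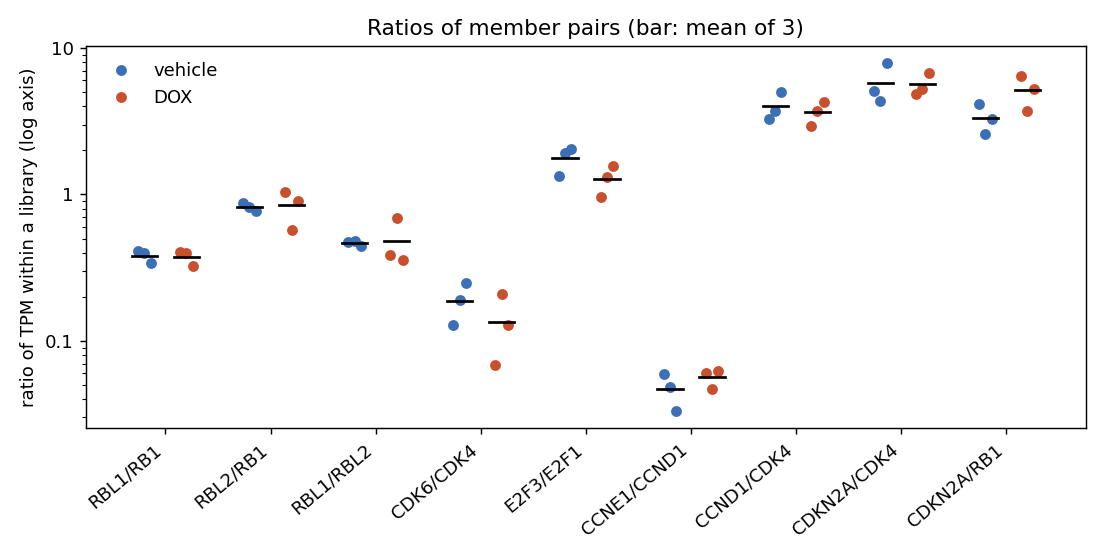
Ratio of the TPM of 2 members within each sample (points, log axis), with the mean of each group (bars), for 9 pairs in 3 vehicle and 3 DOX samples. The groups overlap for every pair, and the ratio of CDKN2A to RB1 runs from 2.57 to 4.11 with vehicle and from 3.71 to 6.45 with DOX.

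Of the 10 genes, 0 were called lower and 0 higher by limma on the TPM scale, where 2.98% of all genes tested were called lower and 0.0257% higher. At an unadjusted p under 0.05 and the same fold change, 3 members were lower (RB1, RBL1 and RBL2), beside 19.0% of all genes lower and 0.12% higher. All 10 log2 fold changes were negative, as were those of 10867 of the 11672 genes tested, with a median of -0.39 beside -0.35 for all genes tested. After median-of-ratios scaling 5 were negative and 5 positive, with a median of 0.01 beside 0.02 for all genes. Limma called 0 members there, and also 0 of all genes. At an unadjusted p under 0.05 and the fold change, 0 members passed, beside 1.15% of all genes lower and 1.18% higher. On the TPM scale, samples with the same replicate number deviated together from their group means, with correlations over genes of 0.566, 0.235 and 0.207. After GC and length correction these were 0.201, 0.0228 and 0.165. Samples of different numbers were not compared in this way, so what a shared number marks remains unknown. With the replicate number as a block, limma called RB1, RBL1 and RBL2 lower on the TPM scale (adjusted p = 0.00187, 0.00226 and 0.00168). CDK6 and E2F3 passed the p threshold in that limma fit (adjusted p = 0.0319 and 0.0344). Their log2 fold changes of -0.48 and -0.51 missed the fold threshold. In that fit 19.0% of all genes were called lower and 0.129% higher. After median-of-ratios scaling with the block 0 members were called, and so were 0 of all genes in either direction. With limma voom on recovered reads and the block, 0 members were called, beside 2.34% of all genes lower and 1.38% higher. RBL2 had an adjusted p of 0.0317 in that limma voom fit with a log2 fold change of -0.38, which is under the fold threshold. On the TPM scale without a block, leaving out DOX replicate 2 led to RB1, RBL1, RBL2 and CDK6 being called lower, where 20.2% of all genes were called lower and 0.0942% higher. Leaving out vehicle replicate 1 led to RB1 and RBL1 being called lower, where 10.8% of all genes were called lower and 0.214% higher. The log2 fold change of RB1 was -1.06 without DOX replicate 2 and -0.41 without DOX replicate 1, and that of CDK6 was -0.83 and -0.16.

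**Figure D3:**
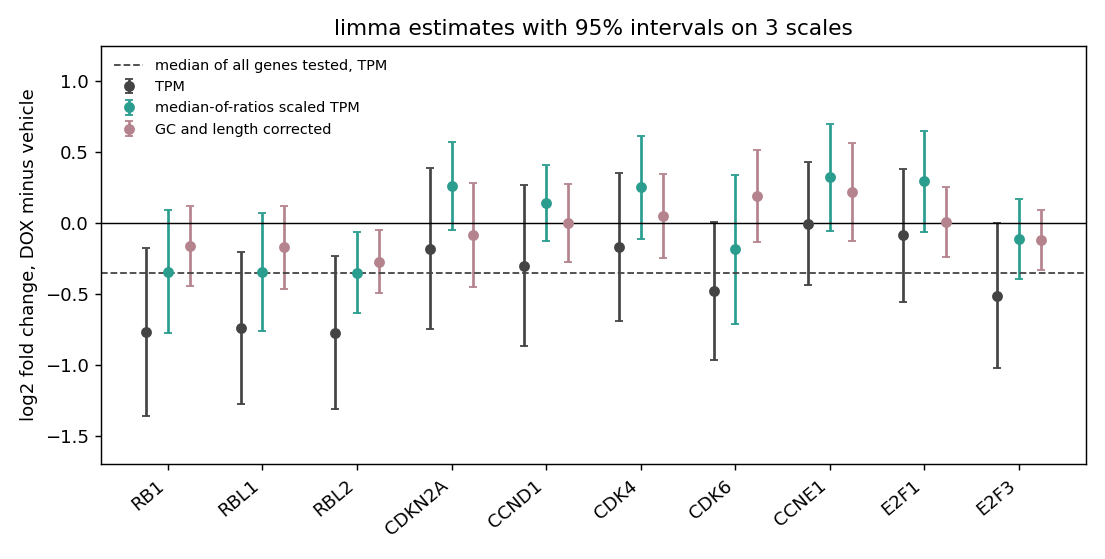
Log2 fold change of each of the 10 genes, DOX against vehicle (points), with 95% intervals from limma (lines), on the TPM scale, after median-of-ratios scaling and after correction for GC content and length. The 10 values are all negative on the TPM scale, with a median of -0.39, and 5 are positive after median-of-ratios scaling.

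DOX replicate 1, the sample with the highest share of small noncoding RNAs, held the lowest TPM of all 6 samples for 9 of the 10 genes, and vehicle replicate 3, with the lowest share, held the highest for 7. The members also differed in base composition. The 3 pocket protein genes, CDK6 and E2F3, whose log2 fold changes lay at or below -0.48, have a GC content of 37.1% (RB1) to 46.3% (E2F3) in their longest annotated transcript. The other 5 genes have 50.3% (CCND1) to 61.6% (E2F1), and the median of all genes tested is 47.1%. Over the 10 genes the Pearson correlation of GC content with the log2 fold change on the TPM scale was 0.857, beside 0.754 over 51 other pathway genes and 0.676 over 10850 genes tested, all measured in the same 6 libraries. After a spline on GC content and length was removed in each sample, the log2 fold changes were -0.16 for RB1, -0.17 for RBL1, -0.27 for RBL2 (95% interval -0.49 to -0.05, limma adjusted p = 0.400) and 0.19 for CDK6, with a median of -0.04 over the 10 genes. The part of base composition in the differences between the groups was not tested beyond this correction, and base composition and regulation of particular genes cannot be told apart here.

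**Figure D4:**
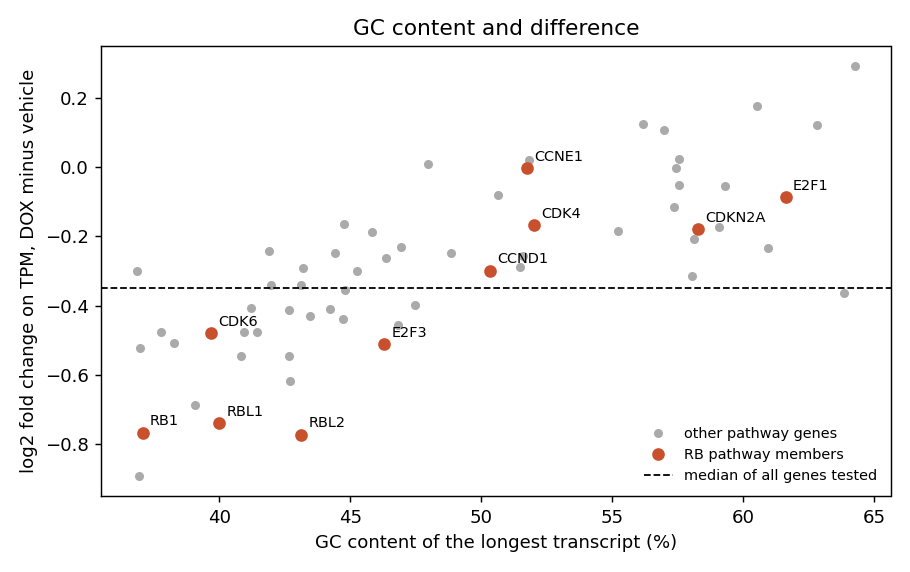
GC content of the longest annotated transcript (percent) against the log2 fold change, DOX against vehicle, on the TPM scale, for the 10 members and the other RB pathway genes (points), with the median of all genes tested (dashed line). Members with a GC content of 37.1% to 46.3% lie at or below -0.48, and CCNE1 and E2F1, at 51.7% and 61.6%, lie near 0.

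Around these 10 genes, 53 further genes of the pathway were counted by role, of which 51 were tested. Limma called 1 of them lower and 0 higher, beside the 2.98% and 0.0257% of all genes given above. The gene called was ARID4A, which encodes an RB-binding subunit of a histone deacetylase complex. ARID4A was at 8.18, 10.0 and 10.5 TPM in the vehicle samples and at 3.14, 6.95 and 4.54 TPM in the DOX samples, with no overlap. It fell by 0.89 on the log2 scale (limma adjusted p = 0.0451), its log2 fold change after median-of-ratios scaling was -0.51 (adjusted p = 0.280), and its GC content of 36.9% is close to that of RB1. The median log2 fold change of the 51 genes was -0.29 on the TPM scale and 0.13 after median-of-ratios scaling. With the replicate block, ARID4A, CDKN1B and LIN54 were called lower on the TPM scale, where 19.0% of all genes were called lower and 0.129% higher.

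The other cyclins and CDKs (6 of 7 tested, CCND2 being under the minimum) had 0 calls on the TPM scale, with a median log2 fold change of -0.27 there and of 0.17 after median-of-ratios scaling. Among them CDK1, the mitotic kinase, had -0.52 (limma adjusted p = 0.210) and, rescaled, -0.09. CDK2, the most abundant, had -0.29 and, rescaled, 0.14. The other CDK inhibitors (5 of 6 tested, CDKN2D being under the minimum) had medians of -0.36 on the TPM scale and -0.02 rescaled with 0 calls, and CDKN1B, which encodes p27, had both the highest level and the smallest adjusted p, with -0.62 (limma adjusted p = 0.140) and, rescaled, -0.18. The other E2F and DP factors (8 genes) had medians of -0.30 and 0.05 and 0 calls, with TFDP2 at -0.46 (-0.07 rescaled) and TFDP1, the most abundant, at -0.26 (0.17 rescaled). Subunits of the DREAM and MuvB complexes, through which p107 and p130 hold cell-cycle genes down, had medians over 6 genes of -0.41 on the TPM scale and -0.01 rescaled and 0 calls. LIN54 was at -0.69 (limma adjusted p = 0.0758) and, rescaled, at -0.34, and the abundant RBBP4 at -0.48 and -0.05. The 8 corepressors and chromatin partners that held ARID4A had medians of -0.37 and, rescaled, 0.04.

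The 18 E2F target genes, which encode replication and nucleotide synthesis factors, had 0 calls on the TPM scale in either direction. Their log2 fold changes were negative for 14 genes on the TPM scale, with a median of -0.21 beside -0.35 for all genes tested. After median-of-ratios scaling they were positive for 15 genes, with a median of 0.23 beside 0.02 for all genes. The sign of this list thus depended on the scaling, while its median lay above that of all genes on both scales. Of all genes tested, 10867 were negative on the TPM scale, and 6123 were positive and 5466 negative after rescaling. POLA1, which encodes the catalytic subunit of DNA polymerase alpha, showed a log2 difference of -0.48 (limma adjusted p = 0.171). TYMS, thymidylate synthase and the most abundant of the list, was at 68.2, 75.9 and 95.9 TPM in the vehicle samples and 50.1, 86.5 and 67.6 TPM in the DOX samples. In limma voom on the recovered reads with the block, TK1 and CDT1 of this list, the MuvB partner MYBL2 and the cyclin gene CCND3 were called higher (log2 fold changes 0.62, 0.84, 0.62 and 0.63, adjusted p = 0.0146, 0.0120, 0.0150 and 0.0297) and ARID4A lower (-0.60, adjusted p = 0.0132). In the same fit 2.34% of all genes were called lower and 1.38% higher. The GC content of TK1, CDT1, MYBL2 and CCND3 was 62.8%, 64.3%, 60.5% and 56.2%. After correction for GC content and length, limma on log2(TPM + 1) called 0 of the 51 genes. That fit called 0 of all genes in either direction, so its 0 says nothing about these genes in particular.

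**Figure D5:**
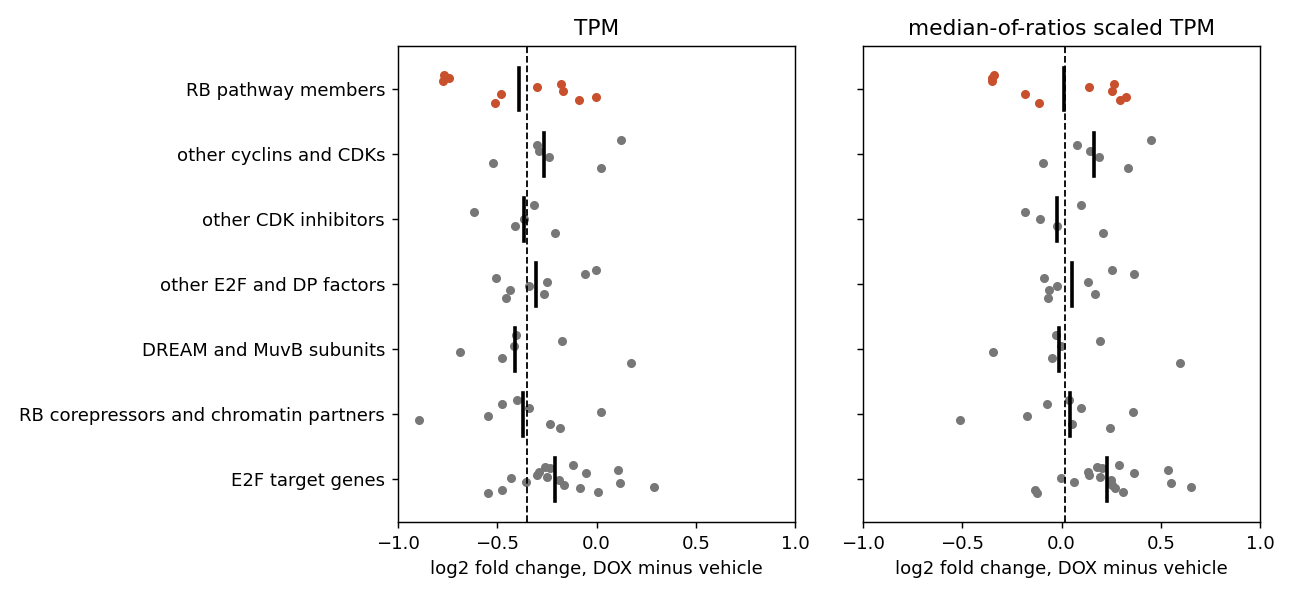
Log2 fold change, DOX against vehicle, of each gene tested in the members and in 6 further lists of RB pathway genes (points), with the median of each list (bars) and of all genes tested (dashed line), on the TPM scale and after median-of-ratios scaling. On the TPM scale the list medians lie between -0.41 and -0.21, beside -0.35 for all genes tested.

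Of all genes tested, those whose median-of-ratios scaled levels followed RB1 most closely over the 6 samples were KIAA1841 (Pearson r = 0.997), MAN2A1 (r = 0.997) and LRRC8B (r = 0.997). These are the highest correlations among the genes tested, over 6 libraries that share their depth and base composition differences, and they are given as a description.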

How the data were processed

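Total RNA of DU-145/tet-XISTshRNA cells was sequenced in 3 vehicle and 3 DOX samples, grouped by their treatment labels. The study's methods name a stranded mRNA library kit. The reason for the large TPM share of small noncoding RNAs was not tested. The labels state culture in triplicate, and the study's methods call the replicates of its experiments in general independent and biological. P-values measure the spread between these samples. The authors used STAR with GRCh38 and deposited TPM per gene symbol. The counting tool, its strand setting and the tool versions are not given in the sources used here. The authors also deposited the DESeq2 comparison of DOX with vehicle (log2 fold changes, standard errors, Wald statistics, p-values and adjusted p-values), of which only the mean normalized count over all samples was used, a signal pooled by the authors. That table lists small RNA symbols that have no row of TPM. E2F3 and CDK4 have processed pseudogenes with no row of their own, so how their reads were assigned is unknown.

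The members and lists were chosen with earlier results of these data known. The genes named are the 10 members, the genes called in each pathway list or otherwise those with the smallest adjusted p and the highest mean TPM, and the 3 genes closest to RB1. The limma voom calls named beside them were chosen after their values were seen.

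The comparison took genes whose TPM averaged at least 1 over all samples on log2(TPM + 1) with limma 3.58.1 in R 4.3.3 (lmFit, eBayes with trend), without a block. Fold changes on this scale understate the change of low genes. Genes were called at a Benjamini-Hochberg adjusted p under 0.05 over all genes tested and a fold change over 1.5. Reads per gene were recovered from TPM and the authors' mean normalized counts, and 99.7% of 22528 low values (0.5 to 20 reads) came within 0.1 of a whole number. Ratios were compared with SciPy 1.17.1. GC content and length came from GENCODE release 44 for 93.0% of the genes tested and were fitted by a spline with 5 degrees of freedom. Scripts were tested on simulated data. No pair of samples was identical (0 pairs).

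The labels share replicate numbers between groups without saying what a number marks. Samples of 1 number deviated together from their groups' means, with a correlation over genes of 0.566, 0.235 and 0.207 on the TPM scale, 0.559, 0.260 and 0.187 after median-of-ratios scaling, and 0.201, 0.0228 and 0.165 after GC and length correction. The pairing rests on these correlations alone, without those between samples of different numbers, and blocked values are given where they change a call. The alternatives were another pseudocount, other expression minimums, median-of-ratios scaling, the block, limma voom, GC and length correction, no fold threshold, and leaving out each sample. The comparison of ratios within replicate numbers was added after the data were seen.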

Additional observations from a re-analysis of the deposited data

How the results depend on the processing

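Of the counts of genes called, the TPM scale gave 348 lower and 3 higher over all genes, 0 and 0 over the 10 members, and 1 and 0 over the other pathway genes. With a pseudocount of 0.1 these were 46, 2, 0, 0, 0 and 0, and with no expression minimum, after median-of-ratios scaling with or without the replicate block, and after correction for GC content and length with or without the block, all were 0 (by limma on the rescaled values, an unadjusted p under 0.05 with the fold threshold was met by 133 lower and 137 higher genes). With a minimum mean TPM of 5, 633 genes were lower and 4 higher. With the replicate block on the TPM scale 2217 were lower and 15 higher, with 3 members and 3 other pathway genes lower, and it changed no other call of a member. Limma voom gave 1 lower and 0 higher, and with the block 273 and 161, with 4 other pathway genes higher.

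Leaving out each sample in turn gave 0 to 2363 genes lower and 0 to 25 higher, with 0 to 4 members and 0 to 4 other pathway genes lower. Without vehicle replicate 1, RB1 and RBL1 were called lower, and without DOX replicate 2, RB1, RBL1, RBL2 and CDK6. ARID4A lost its call without vehicle replicate 2 or 3 and without DOX replicate 1 or 3.

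CDKN2A, CCND1, CDK4, CCNE1 and E2F1 turned positive after median-of-ratios scaling (0.26, 0.14, 0.25, 0.32 and 0.29, also with the block), with limma voom (0.26, 0.13, 0.21, 0.31 and 0.33) and with limma voom and the block (0.26, 0.13, 0.22, 0.24 and 0.36). After GC and length correction, with or without the block, CCND1 (0.0019), CDK4 (0.0499), CDK6 (0.19), CCNE1 (0.22) and E2F1 (0.0055) were positive. Leaving out samples moved RB1 between -1.06 and -0.41, RBL1 between -1.05 and -0.46, CDK6 between -0.83 and -0.16 and E2F3 between -0.65 and -0.31, and gave -0.12 to 0.14 for CCNE1 and -0.35 to 0.0155 for CDKN2A. It also turned the difference of the log2 ratio of CCND1 to CDK4 (-0.26 to 0.0489), CDKN2A to CDK4 (-0.18 to 0.24), RBL1 to RB1 (-0.11 to 0.0669), RBL1 to RBL2 (-0.32 to 0.15) and RBL2 to RB1 (-0.19 to 0.24). With 1 added to each TPM, those of RBL1 to RB1 and RBL1 to RBL2 were 0.0264 and 0.0323. The cause was not tested. Of the members, CCNE1 had the fewest reads in any sample, 26 in vehicle replicate 3. Sign flips within replicate numbers cannot give a p under 0.25 and so say nothing about the stability of the ratios.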
